A study of Mus musculus with 14 samples.

Results

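Pgr, Ly6a, Elf5, Muc1, Spp1 and Mfge8 are genes of the luminal lineage of the mouse mammary gland, where they mark or serve hormone sensing, progenitor or alveolar identity, and milk secretion. The 6 genes were chosen by their presence among the 1324 genes in the authors' deposited table of RNA differences between tumours, so their RNA changes were selected on the readout and are given as a description with no further test. Mammary tumours of FVB mice transgenic for SV40 Tag, a viral oncoprotein, had been profiled by RNA sequencing and by RRBS, a reduced representation form of bisulfite sequencing that reads DNA methylation at CpG sites in part of the genome. Of the methylation data, 1 of 4327 listed CpG sites and 0 of 139 listed regions were annotated to or flanked any of the 6 genes.

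The maternal genistein group came from dams that ate genistein, an isoflavone of soy, at 250 mg/kg of diet, starting when they were 4 weeks old and ending at weaning (maternal LT-GE), and the control group from dams on control diet. Offspring of both groups carried the transgene, ate control diet themselves and were about 25 weeks old. RNA was measured in 4 maternal genistein and 3 control libraries, and RRBS in 4 and 3. The labels do not name the promoter that drives the transgene, nor whether the libraries stem from different litters or animals, and p-values therefore cover the spread between these libraries alone. RNA values per library were not analysed here, because the table gives only a mean over all libraries, a log2 fold change and its error for each gene. Whether 1 tumour carried an RNA difference could therefore not be examined.

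The header does not say which group is the numerator of the fold change. Positive folds are read below as higher in maternal genistein tumours, because chromosomes with a larger share of positive genes also had higher relative RRBS coverage in those libraries (Pearson's r = 0.906 and Spearman's rho = 0.929 over 20 chromosomes, r = 0.89 without the 2 farthest). Chromosomes share the same 7 RRBS libraries, and the correlation is a description. The opposite reading would turn the sign of each RNA value below, and leave the methylation and coverage values as they are. Reading the sign this way assumes that RNA follows DNA dose along chromosomes and that both assays drew on like tumours.

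As background, the luminal layer of the mammary gland holds hormone-sensing cells, which carry the receptors for oestrogen and progesterone and signal to their neighbours, and progenitors that give rise to milk-producing alveolar cells. Prolactin acts through its receptor, JAK2 and STAT5 to switch on milk genes, and the ETS factor ELF5 is needed in the mouse for alveolar differentiation. Milk fat leaves the cell wrapped in apical membrane that carries MUC1 and MFGE8.

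Spp1 was the member with a listed CpG site, so the 250 bases before each of its RefSeq transcript starts are shown (GRCm38.p6, plus strand, 5′ to 3′, CpG dinucleotides in capitals). The upper window is chr5:104434861-104435110 and the lower is chr5:104435942-104436191.

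Spp1 upstream of the first start: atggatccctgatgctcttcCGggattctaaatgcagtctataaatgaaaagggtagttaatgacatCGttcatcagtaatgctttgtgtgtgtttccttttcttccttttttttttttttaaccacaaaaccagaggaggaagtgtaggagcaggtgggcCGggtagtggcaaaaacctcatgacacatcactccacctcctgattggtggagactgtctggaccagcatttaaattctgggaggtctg
Spp1 upstream of the second start: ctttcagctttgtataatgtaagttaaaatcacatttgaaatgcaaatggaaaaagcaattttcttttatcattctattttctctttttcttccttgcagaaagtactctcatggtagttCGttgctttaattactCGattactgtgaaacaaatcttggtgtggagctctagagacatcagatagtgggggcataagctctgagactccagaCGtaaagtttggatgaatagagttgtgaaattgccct

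Each of these windows holds 3 CpGs, and the upper contains 2 copies of CCGG while the lower contains 0. The listed CpG site, at position 104436510 of chromosome 5, lies beyond both windows, 1399 bases after the first start and 318 bases after the second. Across the 300-base promoter windows of RefSeq (250 bases before to 50 after a start), 7 windows matched 5 members, with 2 each for Elf5 and Spp1, and Ly6a was not among them. The palindrome TTCNNNGAA, a STAT5-type motif searched on both strands, was found in 0 of the 7 windows, against 8.30% of 32851 mouse windows. ACANNNTGT, of the type bound by progesterone and glucocorticoid receptors, had 1 match, which lay 179 bases before the Muc1 start, and 6.85% of the windows hold it. GGAA, the ETS core, was in all 7, as in 96.0% of the windows, and CCGG was in 4 of the 7, against 52.8%. Counted over 300 bases, Mfge8 had 17 CpGs, Muc1 and Pgr 6 each, and the Elf5 windows 3 and 10, with a median of 7 over all windows. A match in these letters is no evidence of binding, and a missing match says nothing of the factor.

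Of the 6 genes, Pgr, Ly6a and Muc1 (3) were higher in maternal genistein tumours and Elf5, Spp1 and Mfge8 (3) were lower. Among all 1324 listed genes 58.0% were higher and 42.0% lower. The DESeq adjusted p-values imply that 1521 of 18425 tested genes, or 8.26%, stood at or below the last listed p, and the other 197 were not analysed here. Since the members were picked from that list, their number past its threshold carries no information. Median absolute log2 fold change was 1.88 over the 6 genes and 1.58 over all listed genes, in the authors' deposited table. Tumours are bulk tissue, so fewer cells of a type and less RNA per cell cannot be told apart in any of these values.

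Pgr encodes the progesterone receptor, a nuclear receptor of hormone-sensing luminal cells. It lies on chromosome 9 at 8898900 to 8968611 (GRCm38.p6). In the authors' deposited table it had a log2 fold change of 2.96 (SE 0.67), which is 7.80-fold higher in maternal genistein tumours with a 95% interval of 3.15 to 19.3-fold. Its mean normalised count over the 7 libraries in the authors' deposited table was 39.2, and its interval is the widest of the 6 on the log2 scale. The DESeq adjusted p was 0.00043 and the edgeR false discovery rate 0.00199 in the authors' deposited table.

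Ly6a encodes SCA-1, a lipid-anchored surface protein that in the mouse gland marks hormone-sensing luminal cells, and that T cells and endothelium also carry. The gene spans 74994877 to 74998031 on chromosome 15. The authors' deposited table gave it a log2 fold change of 1.71 (SE 0.33) at a mean normalised count of 3180, or 3.26-fold higher with a 95% interval of 2.09 to 5.10-fold. Its DESeq adjusted p was 1.82e-05 and its edgeR false discovery rate 1.07e-05 in the authors' deposited table. RefSeq places 15 Ly6 genes within 1 Mb of it, counting Ly6a, and 2 were listed, Ly6a and Ly6h. Ly6h, a gene known from brain, stood at 4.89 (SE 1.54) in the authors' deposited table. Several Ly6 genes are close copies, and how reads shared between copies were counted is not given in the sources used here, so the Ly6a value is uncertain in that respect.

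Elf5, the ETS transcription factor of luminal progenitors and alveolar cells, was lower. It lies on chromosome 2 at 103412098 to 103450989. The authors' deposited table put its log2 fold change at -2.68 (SE 0.50) with a mean normalised count of 1833, which is 6.39-fold lower in maternal genistein tumours with a 95% interval of 3.25 to 12.6-fold. By p-value it stood highest of the 6 genes, at rank 181 of 1324, and the authors' deposited table gave a DESeq adjusted p of 7.78e-06 and 4.68e-08 as the edgeR false discovery rate.

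Muc1, which encodes a transmembrane mucin of the apical luminal surface, was higher. It occupies 89229056 to 89233381 of chromosome 3. Muc1 had a log2 fold of 1.94 (SE 0.53) in the authors' deposited table at a mean normalised count of 1633, or 3.85-fold higher with a 95% interval of 1.87 to 7.91-fold. The DESeq adjusted p was 0.00646 and the edgeR false discovery rate 0.00176 in the authors' deposited table.

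Spp1 encodes osteopontin, a secreted phosphoprotein of milk, bone and macrophages that binds integrins and CD44. Its span is 104435111 to 104441053 on chromosome 5. The authors' deposited table gave a log2 fold change of -1.81 (SE 0.46) and a mean normalised count of 45531, that is 3.51-fold lower in maternal genistein tumours with a 95% interval of 1.88 to 6.54-fold. Its DESeq adjusted p was 0.00264 and its edgeR false discovery rate 0.00176 in the authors' deposited table.

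Mfge8 encodes lactadherin, the milk fat globule protein that bridges phosphatidylserine on dying cells to integrins of the cells that engulf them. The gene lies on chromosome 7 at 79133768 to 79149060. Of the 6 genes it changed least, with a log2 fold of -0.66 (SE 0.22) in the authors' deposited table at a mean normalised count of 23890, or 1.58-fold lower with a 95% interval of 1.17 to 2.12-fold. A larger absolute fold was found for 98.5% of the listed genes in the authors' deposited table. The DESeq adjusted p of 0.0361 was the nearest of the 6 to the largest listed value, 0.0499, and the edgeR false discovery rate in the authors' deposited table was 0.19. With edgeR, 5 of the 6 genes were under a false discovery rate of 0.05, against 70.5% of listed genes, and the same 5 were under a DESeq adjusted p of 0.01. Fold changes of the 2 tools differed by at most 0.03 on the log2 scale for any of the 6.

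**Figure D1:**
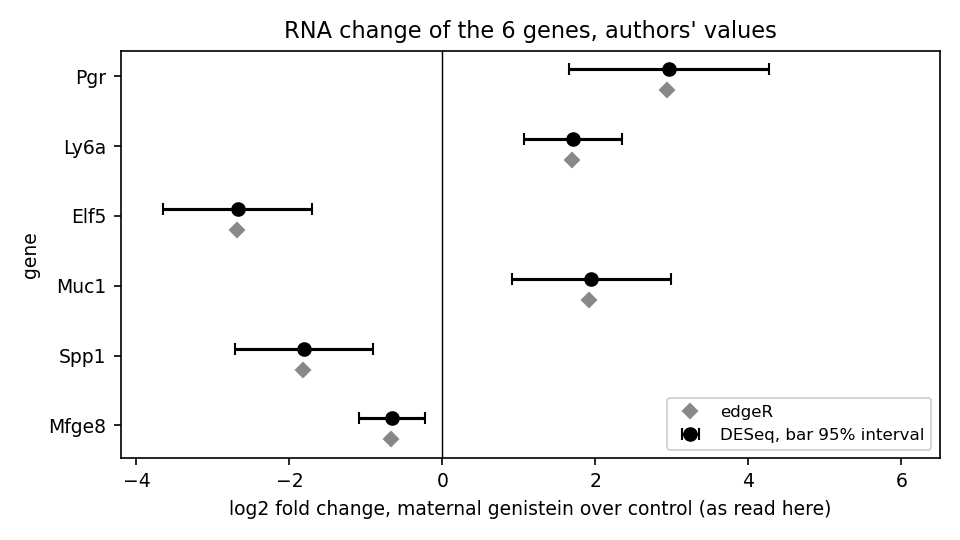
Log2 fold change of RNA, maternal genistein over control as read here, for the 6 genes (rows), from the authors' deposited table. Black circles are DESeq values with 95% intervals and grey diamonds edgeR values. Pgr, Ly6a and Muc1 lie right of 0, Elf5, Spp1 and Mfge8 left of it, and Mfge8 at -0.66 is nearest to 0.

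The genes around the 6 in their pathways split in direction as well. Across 12 gene lists of mammary lineages and other cell types holding 112 different genes, 23 genes were in the table. A gene outside the table had a DESeq adjusted p over the threshold, was not tested, or was among the 197 not analysed here, and has no value below. For scale, the share of all tested genes at that threshold was 8.26%, as given above, and the median log2 fold change of all listed genes was 0.89 in the authors' deposited table. The lists were put together with results of these data known, so a share above that level is a count and no finding about a list.

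Of 16 hormone-sensing genes 5 (31.2%) were listed, 3 higher and 2 lower, with a median log2 fold of 1.71 in the authors' deposited table. That median is the value of Ly6a, a member like Pgr, and without members 3 of 14 genes were listed. Id4, an inhibitor of helix-loop-helix factors known in the gland from basal as well as luminal cells, was higher beside Pgr and Ly6a, with a log2 fold of 1.80 (SE 0.51) in the authors' deposited table. Areg, the EGF family ligand amphiregulin that oestrogen induces in these cells, was lower at -2.64 (SE 0.51) in the authors' deposited table. Prlr, the prolactin receptor, was lower at -1.55 (SE 0.41) in the authors' deposited table. Of the receptor genes on the list, Pgr and Prlr were listed in opposite directions and Esr1, the oestrogen receptor, was not listed.

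The progenitor and alveolar list had 4 of 11 genes (36.4%) listed, 2 higher and 2 lower, with a median of 0.22 in the authors' deposited table. Without Elf5, the member among them, 3 of 10 genes were listed. Rspo1, a WNT agonist secreted by luminal cells, had a log2 fold change of 5.31 (SE 0.82), and Aldh1a3, a retinaldehyde dehydrogenase of luminal progenitors, 2.15 (SE 0.63), both in the authors' deposited table. Itgb3, the integrin beta 3 chain, was lower with Elf5, at -1.70 (SE 0.44) in the authors' deposited table. Kit, Cd14 and Ehf were not listed.

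Among 18 milk and secretory genes 4 (22.2%) were listed, 1 higher and 3 lower, with a median of -1.23 in the authors' deposited table. Of these 4 genes, 3 were members, and without members 1 of 15 genes was listed. The remaining gene was Trf, which encodes the iron carrier transferrin of serum and mouse milk, and it was lower at -3.18 (SE 0.50) in the authors' deposited table. Of the 5 caseins on the list 0 were in the table. Of 10 genes of the prolactin, JAK2 and STAT5 pathway, Prlr was the one listed gene. Keratin 18 and claudin 4 were the 2 listed of 8 luminal keratin and junction genes. Cldn4 was higher at 1.99 (SE 0.50) and Krt18 lower at -1.18 (SE 0.40) in the authors' deposited table. Their mean normalised counts in the authors' deposited table, 7053 for Cldn4 and 23160 for Krt18, show epithelial RNA in these tumours.

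Spp1 acts on cells through integrins and CD44, and Mfge8 through integrins. On a joint list of 10 receptor genes, not all shared by both, 4 were listed, 1 higher and 3 lower. Itga8 was lower at -3.19 (SE 0.61), Itgb3 at -1.70 (SE 0.44) and Itga9 at -1.40 (SE 0.42) in the authors' deposited table. Itgb6, an epithelial integrin chain, was higher at 1.35 (SE 0.37) in the authors' deposited table. Cd44, Itgav and Itgb1 were not listed.

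Markers of basal cells and endothelium were listed too. The basal and myoepithelial list had 4 of 9 genes listed and all 4 higher, with Trp63, the basal master factor, at 4.73 (SE 0.71), Krt5 at 4.49 (SE 0.78), Mylk at 3.05 (SE 0.51) and Cnn1 at 2.24 (SE 0.65) in the authors' deposited table. Macrophage (0 of 10), T cell (0 of 6), fibroblast (0 of 5) and adipocyte (0 of 4) markers had no listed gene. Of 7 endothelial markers Flt1 was listed, higher at 1.56 (SE 0.49) in the authors' deposited table. Levels of these markers per library were not analysed here, and the part of cell makeup in the 6 changes was not tested.

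**Figure D2:**
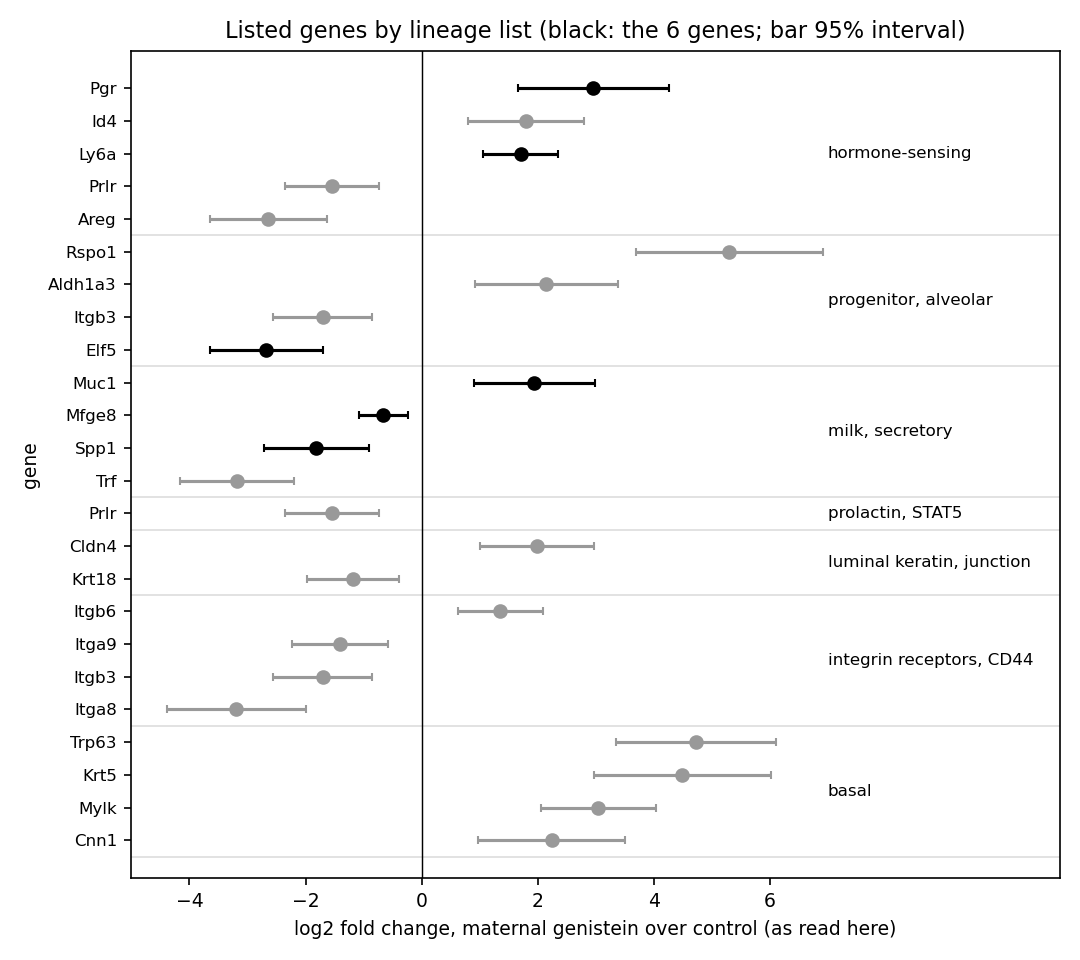
Log2 fold change of RNA with 95% intervals for the listed genes of 7 lists (rows, grouped by list), maternal genistein over control as read here. Black points are the 6 genes and grey points other listed genes. The 4 basal genes lie right of 0, while the luminal, milk and receptor lists have points on both sides.

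The Spp1 site was the one listed CpG at any of the 6 genes, and the authors' annotation calls it intronic. In the maternal genistein libraries 1, 2, 3 and 4 its methylation was 87.0%, 85.7%, 81.4% and 80.0%, from 69, 42, 102 and 20 reads. Control libraries 1, 2 and 3 stood at 21.9%, 26.9% and 55.8%, from 64, 52 and 52 reads. All 4 maternal genistein libraries were above all 3 control libraries, and control 3 stood apart from the other controls. Exact 95% binomial intervals, which cover counting error only, ran from 56.3% to 94.3% in the shallowest maternal genistein library and from 41.3% to 69.5% in control 3.

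Group means at the site were 83.5% ± 3.35 in maternal genistein tumours (SD, n = 4) and 34.9% ± 18.3 in control tumours (SD, n = 3), a difference of 48.7 percentage points. The site had been listed for this contrast, so the tests describe its spread and are not independent support. A quasi-binomial model that keeps the spread between libraries gave p = 0.00271, and the Benjamini-Hochberg adjusted p over 4327 sites was 0.110. The two-sided exact permutation test gave p = 0.0286, the smallest that 4 against 3 libraries allow. Among all listed sites 31.6% had a quasi-binomial p under 0.05, 27.8% had groups that did not overlap, 53.1% were higher in maternal genistein tumours, and 0.0462% (2 sites) passed the adjustment. An absolute difference larger than that of the Spp1 site was found at 371 sites, or 8.57%.

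The integrated table of the authors pairs this site with Spp1 and with Gm42793, an overlapping gene model that is no member. Distances in that table place Gm42793 within the first part of Spp1, ending 138 bases before the site. Gm42793 was lower too, at -2.06 (SE 0.68) in the authors' deposited table, on a mean normalised count of 55.9. Whether counting used strand is not given in the sources used here, so reads of Gm42793 and Spp1 cannot be told apart. At Spp1, then, methylation at the site was higher and RNA lower in maternal genistein tumours, and any link between them was not tested. The labels do not tie RNA libraries to RRBS libraries.

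**Figure D3:**
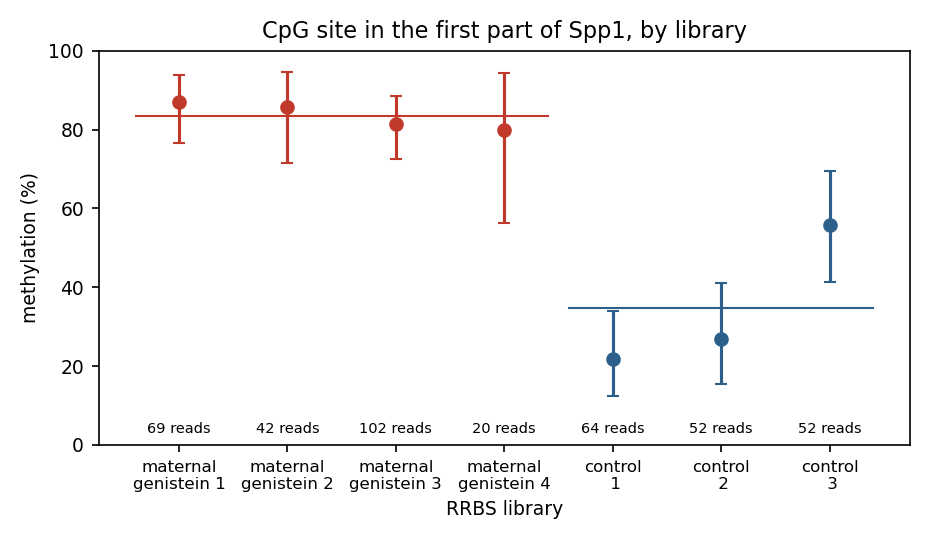
Methylation (%) of the CpG site within Spp1 in each RRBS library, with exact 95% binomial intervals, the number of reads under each point and a horizontal line at each group's mean. The maternal genistein libraries lie between 80.0% and 87.0% and the control libraries between 21.9% and 55.8%.

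For the other 5 genes no listed site lay in or flanked the gene, and nearby CpGs that were not listed were not analysed here. The nearest listed site on each side was read for all 6 genes, which gave 12 sites in other genes or between them, 8 higher and 4 lower in maternal genistein tumours. Groups did not overlap at 4 of the 12, or 33.3%, near the share over all sites, and 0 passed the adjustment while 5 had a p under 0.05 unadjusted. Muc1 was closest to such sites. At 74.4 kb, in an intron of Hcn3, methylation was 60.3%, 28.1%, 38.6% and 57.4% in maternal genistein libraries 1 to 4, against 15.3%, 6.59% and 24.8% in controls 1 to 3 (108 to 223 reads, quasi-binomial p = 0.0263, adjusted p = 0.136). On the other side, at 132 kb and just upstream of Dcst1, means were 90.2% ± 14.5 in maternal genistein libraries and 30.7% ± 25.5 in controls (SD, n = 4 and 3), from 11 to 24 reads a library, without overlap and with an adjusted p of 0.13 by the quasi-binomial model.

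Near Mfge8 the closest listed site was 362 kb away, in an intron of the noncoding gene Mir9-3hg. Maternal genistein libraries 1 to 4 had 4.40%, 28.5%, 20.4% and 17.6% methylation there, against 71.2%, 63.5% and 71.5% in controls 1 to 3, with no overlap between groups. The quasi-binomial p was 0.00104 and the adjusted p 0.103. Outside Spp1 itself the closest site was 636 kb away in an intron of Aff1, at 93.4% ± 13.2 in maternal genistein libraries and 27.4% ± 23.9 in controls (SD, n = 4 and 3), again without overlap, and the quasi-binomial model's adjusted p was 0.129. Elf5 had its closest site at 450 kb in Lincred1, Ly6a at 748 kb between Rhpn1 and Mafa, and Pgr at 1.19 Mb in Cntn5, and groups overlapped at these 3. Levels at the Pgr site ran from 16.7% to 100% in maternal genistein libraries and from 7.69% to 33.3% in controls.

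Sites at the listed genes of the luminal, milk, prolactin and receptor lists, 18 genes in all, were few as well. Sites were annotated to 5 of these genes, within 3 of them and flanking the other 2. Trf, which was lower in RNA, had 3 intronic sites that were all lower in maternal genistein tumours, by 17.7 to 37.8 points, where groups overlapped. Krt18, also lower in RNA, had 4 sites that were all higher, by 25.3 to 32.5 points, and groups overlapped at each. The Trf sites lie close together, at 103212972 to 103213003 of chromosome 9, as do the Krt18 sites, at 102029439 to 102029498 of chromosome 15. Read numbers per library were nearly equal across the sites of each gene, so the sites of a gene are not independent observations. Itgb3 had 4 flanking sites, 3 higher and 1 lower. At 1 of them, 232 kb from the gene, groups did not overlap, with means of 82.1% in maternal genistein and 46.4% in control libraries and an adjusted p of 0.111 by the quasi-binomial model. Cldn4 had 1 flanking site that was higher by 30.6 points, 24.3 kb from Cldn4 and nearer to Cldn3, at 15 kb. Groups thus did not overlap at 1 site inside Spp1 and at 1 site flanking Itgb3, and overlapped at all other sites of these 5 genes. Over all listed sites the share without overlap was 27.8%, so by overlap alone these 2 sites do not stand out.

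DNA coverage was read as a further measure, one that did not enter the choice of genes. For each listed site within 10 Mb of a gene, log2 read coverage was taken relative to the site's mean and to the library's autosomal median, and the median over sites was used. At the listed sites the maternal genistein libraries held 113967 to 210974 reads and the controls 203672 to 226194. Around Ly6a, relative coverage was -0.10, -0.42, -0.14 and -0.22 in maternal genistein libraries 1 to 4, against 0.08, 0.43 and 0.24 in controls 1 to 3, over 30 sites. Groups did not overlap, and the difference of -0.47 had the smallest exact permutation p of 0.0286, with an adjusted p of 0.171 over the 6 genes. Windows of this size around 1269 listed genes gave groups that did not overlap in 12.6%, against 1 of 6 here.

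Near Pgr the maternal genistein libraries had 0.30, 0.36, 0.01 and 0.09 and the controls 0.05, -0.11 and -0.36 over 14 sites, a difference of 0.33 (exact permutation p = 0.0857, adjusted p = 0.171). For Elf5 the values were 0.14, -0.20, -0.31 and -0.16 in maternal genistein libraries and 0.24, 0.44 and -0.02 in controls over 17 sites, a difference of -0.35 (exact permutation p = 0.0857, adjusted p = 0.171). In both windows 1 library of a group reached into the range of the other. Differences around Muc1, Spp1 and Mfge8 were -0.32, 0.17 and -0.12, each with overlapping groups and an adjusted p of 0.429 by the exact permutation test. At Muc1 the spread was widest, from -0.75 to 0.18 in maternal genistein libraries and from -0.26 to 0.49 in controls, and the difference was -0.07 without maternal genistein 1 and -0.54 without control 3.

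The coverage difference had the sign of the RNA fold for Pgr, Elf5 and Mfge8 and the other sign for Ly6a, Muc1 and Spp1. Over 1269 listed genes the share with the same sign was 70.1%, against 3 of 6 here, and it would be 29.9% if the fold ran the other way. Because the sign of the RNA fold was itself read from coverage by chromosome, that share is not an independent check, and the opposite reading would exchange the 2 sets of 3 genes.

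**Figure D4:**
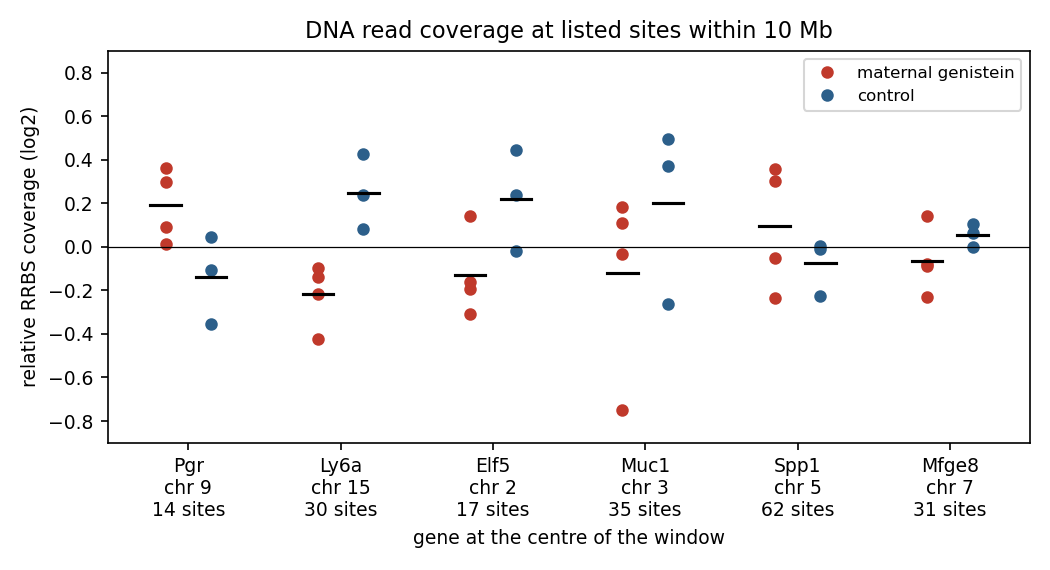
Relative RRBS coverage (log2) at listed sites within 10 Mb of each gene, 1 point per library, maternal genistein left and control right of each tick, bars at group means. Groups are apart around Ly6a, with all 4 maternal genistein libraries below all 3 controls, and overlap around the other 5 genes.

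Listed genes near the 6 were counted next, over the 1269 of 1324 that RefSeq places, since 55 had no position. Within 10 Mb, Spp1 had 5 other listed genes with a RefSeq position, and these were higher while Spp1 itself was lower. The listed gene Gm42793, which overlaps Spp1 and has no such position, was lower as well and is not in the counts. The closest of the 5 were Klhl8 at 524 kb with a log2 fold change of 0.83 (SE 0.26) and Gm42141 at 1.05 Mb with 1.84 (SE 0.64), both in the authors' deposited table, where their edgeR false discovery rates were 0.28 and 0.0725. On its whole chromosome 45 listed genes were higher and 14 lower. Ly6a likewise went against its surroundings, with 7 higher and 22 lower genes within 10 Mb and 18 higher and 67 lower on chromosome 15. Its nearest listed neighbours, however, were higher, with Mroh4 at 2.80 (SE 0.64) and Ly6h at 4.89 (SE 1.54) in the authors' deposited table.

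Pgr had 4 higher and 1 lower listed genes within 10 Mb, and 102 higher and 16 lower on chromosome 9. Cntn5, 666 kb away, was at 5.18 (SE 0.83) and Pdgfd, 2.36 Mb away, at -2.48 (SE 0.54) in the authors' deposited table. Elf5 had 4 higher and 4 lower genes within 10 Mb, although on chromosome 2 only 21 were higher and 87 lower. Cat, the catalase gene that lies 2.92 kb beyond Elf5, was lower at -0.75 (SE 0.26) in the authors' deposited table, and its false discovery rate by edgeR was 0.0587. Pamr1, 769 kb to the other side, was higher at 4.44 (SE 0.60) in the authors' deposited table.

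Muc1 had 4 higher and 2 lower listed genes within 10 Mb, with 17 and 19 on chromosome 3. Syt11 at 1.76 (SE 0.50) and Slc27a3 at 1.36 (SE 0.42) were its nearest in the authors' deposited table. Mfge8 had 2 higher and 5 lower genes within 10 Mb, with 23 and 41 on chromosome 7. Abhd2, 124 kb away, was at -1.35 (SE 0.34) and Slco3a1, 4.58 Mb away, at 1.57 (SE 0.35) in the authors' deposited table. Within 10 Mb, then, Pgr, Muc1 and Mfge8 had the direction of most of these neighbours and Ly6a and Spp1 the other. The balance moved with the window. Within 5 Mb Pgr had 1 higher and 1 lower gene, Mfge8 2 and 2, and Ly6a 5 higher and 7 lower. Within 20 Mb Muc1 had 5 higher and 7 lower genes, and Elf5 7 higher and 13 lower. These counts leave out genes that were not listed, and no test was made of them.

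**Figure D5:**
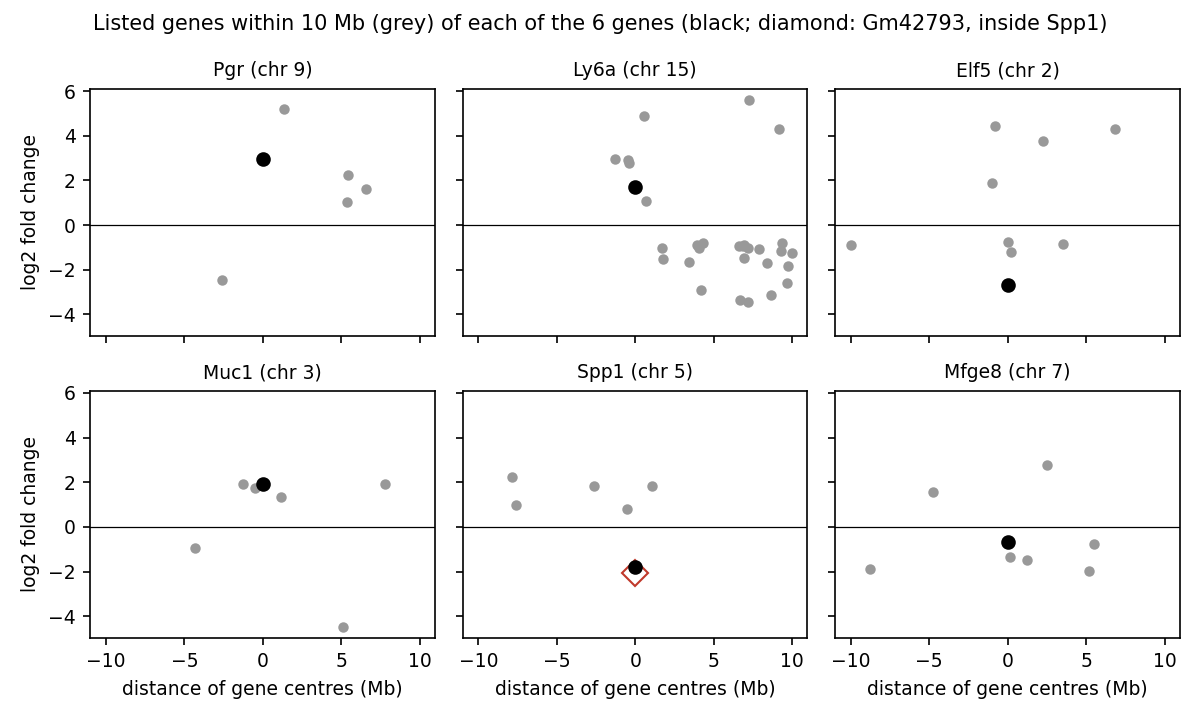
Log2 fold change of RNA, maternal genistein over control as read here, of listed genes within 10 Mb (grey) against the distance of their centres from each of the 6 genes (black, at 0 Mb). The open diamond is Gm42793, placed inside Spp1 by the authors' distances. Spp1 and Gm42793 lie below 0 and the 5 grey points around them above, and most grey points around Ly6a lie below 0 on the side of increasing position.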

How the data were processed

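The 6 genes and the gene lists were chosen with earlier results of these data known. The tools named are STAR, HTSeq and DESeq, with Bismark, Trim Galore, FastQC and R 3.6.1, per the submitters' processing notes, and the builds are mm10 and GRCm38, whose coordinates are the same. For their roles and other versions, the sources used here give nothing.

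For RNA, per the file headers, the authors deposited 1 signal per gene, its normalised count averaged over all libraries, beside log2 fold changes by DESeq (with SE) and by edgeR. The p-values of each tool, raw and adjusted, are the authors' as well. Where a gene had repeated lines, 1 was kept. No new RNA test was made. The 95% intervals are normal intervals from the deposited SE, and the number of genes tested was recovered from the deposited p-values.

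For RRBS, read counts (methylated and total), percent methylation and p-values were deposited by the authors at 4327 CpG sites, all with at least 10 reads in every library, and regions with methylation as a fraction per group. From the read counts, a quasi-binomial model (Pearson dispersion with a floor of 1, F test) compared 4 maternal genistein with 3 control libraries at each site, with Benjamini-Hochberg adjustment over the sites. It was tested on simulated sites that were not selected for a difference. The listed sites were so selected, so that test does not show how the model behaves on them. Exact permutation tests ran over 35 assignments of the libraries. Median coverage of the listed sites was 33, 30, 37 and 18 reads in maternal genistein and 41, 39 and 35 in control libraries, so maternal genistein 4 is the least precise.

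Genes were named by rule as the 6 members, listed genes of the 12 lists, the nearest listed gene on each side and the nearest listed sites. Alternatives were the edgeR values, a stricter threshold, coverage minimums, other references for the site test, other windows and centrings, left-out libraries and a replicate block. Libraries with the same replicate number did not deviate together, so numbers were not used as pairs in the main tests, although a shared origin is not excluded. Promoter sequences and gene positions are from RefSeq (GRCm38.p6). Python 3.11.15, numpy 2.4.6, pandas 2.3.3, scipy 1.17.1 and matplotlib 3.10.9 were used.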

Additional observations from a re-analysis of the deposited data

How the results depend on the processing

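The RNA directions of all 6 genes and the calls of 5 held with edgeR and at a DESeq adjusted p under 0.01, and Mfge8 lost its call under both. For the Spp1 site the difference was 48.7 points with a chi-square reference, which by construction takes the dispersion as known, in place of the F test, and there it passed the adjustment (adjusted p = 1.55e-06). With reads pooled within groups and no dispersion it was 49.8 points (adjusted p = 7.09e-24). That likelihood ratio test treats reads as independent and returned the authors' own p at the site (5.28e-25). The site was listed from the authors' test, so passing in this setting carries no information. Leaving out each library in turn gave 42.2 to 59.1 points with adjusted p of 0.108 to 0.187 by the F test. The difference was lowest without control 1 and highest without control 3. Coverage differences kept their signs in all 78 alternatives for the 6 genes, and 0 passed the adjustment. With a library left out, or with the replicate block, the exact permutation p cannot fall below 0.0667. Those settings could therefore not pass, and only the signs and sizes of the differences can be read from them. The sizes of the coverage differences were less stable. Leaving out 1 library gave -0.07 to -0.54 around Muc1, where maternal genistein 1 and all 3 controls each moved it by over 1.5 times. Around Spp1 it gave 0.05 without maternal genistein 3 and 0.10 without maternal genistein 4 or control 2, and around Mfge8 -0.21 without maternal genistein 3. Windows of 5 Mb gave 0.61 for Pgr and -0.04 for Mfge8, and windows of 20 Mb -0.22 for Elf5, -0.12 for Muc1 and 0.10 for Spp1. The replicate block over numbers 1 to 3 left the Spp1 site at 49.8 points, and gave coverage differences of 0.36 for Pgr, -0.47 for Ly6a, -0.34 for Elf5, -0.40 for Muc1, 0.10 for Spp1 and -0.12 for Mfge8. With the block the quasi-binomial model's p at the Spp1 site was 0.0588. Deviations of same-numbered libraries correlated at 0.02, 0.01 and -0.03. These values cannot exclude that such libraries share an origin, which the labels do not give. Counts of higher neighbours scale with the window, with 1 near Pgr within 5 Mb and 18 within 20 Mb, and 3 and 12 near Spp1. Low depth in maternal genistein 4 and the small number of libraries limit the tests, and the RNA values carry no check by library.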

Other observations

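Some luminal genes that were not in the RNA table had listed CpG sites near or in them. Gata3, which encodes a luminal lineage factor, had 2 intergenic sites assigned to it, both lower in maternal genistein libraries. The nearer, 34.1 kb away at position 9822966 of chromosome 2, was at 65.8% ± 15.4 in maternal genistein libraries and at 100% in all 3 controls (quasi-binomial adjusted p = 0.103, exact permutation p = 0.0571). The other, 424 kb away and nearer to 1700061F12Rik, was at 23.5% ± 3.58 in maternal genistein libraries and 72.2% ± 17.0 in controls (SD, n = 4 and 3), at position 9433543 of chromosome 2. Groups did not overlap at either, and they did not overlap at 27.8% of all listed sites. The second Gata3 site had an exact permutation p of 0.0286 and a quasi-binomial adjusted p of 0.111. In an intron of Krt19, a luminal keratin gene, a site stood at 14.4% ± 11.2 in maternal genistein libraries and 49.7% ± 13.1 in controls (SD, n = 4 and 3), with an exact permutation p of 0.0286 and an adjusted p of 0.129. Kit, the receptor that marks luminal progenitors, had 1 intronic site, where the maternal genistein mean was 25.6 points above the control mean and groups overlapped (adjusted p = 0.144). Of 5 sites flanking Kit, 80.5 to 144 kb away, 2 were higher and 3 lower. The 3 lower sites lie at 75469059 to 75469100 of chromosome 5 with nearly equal reads per library, and are not independent observations. Groups did not overlap at 1 of the 5 sites, at 38.9% ± 39.3 in maternal genistein libraries and 100% in the controls (exact permutation p = 0.0571, adjusted p = 0.13). These genes were picked after their values were seen, from the 16 genes with a site among 71 of the luminal, milk, prolactin and receptor lists. Of the others outside the RNA table, Socs3 had a flanking site without overlap, lower in maternal genistein libraries. Groups overlapped at the sites of Cldn3, Epcam, Krt8, Prom1, Stc2, Wnt4 and Xdh, and the Cldn3 site is the same one that flanks Cldn4.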
